A study of Mus musculus with 157 samples.

Results

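Metformin and vehicle were compared in mouse macrophages that had received no particle. The comparison rests on 6 of the 157 samples of the series, 3 labelled Metformin PBS and 3 labelled Vehicle PBS, and covers the 24940 genes of their expression table, of which 12514 were abundant enough to test. All 6 samples were bone marrow-derived macrophages of genotype WT, grown from C57BL/6 bone marrow in DMEM with fetal bovine serum and 16 ng/mL macrophage colony-stimulating factor (M-CSF), replated on the sixth day and treated with metformin or its vehicle from the following day, and all received PBS in place of a particle suspension. The labels give no dose or duration of metformin, no age or sex of the mice, and do not say whether replicates came from separate animals or cultures, so the p-values measure the spread between these samples, which may be technical. Another 6 libraries of the same table entered the same model: Metformin MSUc and Vehicle MSUc, 3 libraries each, in which the same cells were given 250 µg/mL monosodium urate crystals (MSUc). For 1 comparison, 3 libraries labelled Ampka1KO and 3 labelled Ampka1WT, all in PBS, were taken from another experiment of the series. There marrow from Ampkα1-/- mice and congenic WT mice, 7 to 8 weeks old, was cultured in RPMI medium, with M-CSF at 5 ng/mL. The MSUc libraries of that experiment, 3 for each label, entered its model too, and so bear on its calls. The study as a whole asked how macrophages that take up particles regulate inflammatory and lysosomal genes.

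Metformin is a biguanide used in diabetes that lowers mitochondrial respiration and, in many cells, activates AMP-activated protein kinase (AMPK), the sensor of a low energy charge. Cells under mitochondrial, amino acid or endoplasmic reticulum stress phosphorylate the translation factor eIF2α, which slows general protein synthesis while the transcription factor ATF4 is translated more. ATF4, with partners such as CHOP (encoded by Ddit3), then switches on genes for amino acid synthesis and import, tRNA charging and feedback control, a programme known as the integrated stress response. Bone marrow macrophages depend on M-CSF, whose receptor Csf1r, together with the lineage factors PU.1 (Spi1) and c-Maf, maintains their identity.

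The sequences upstream of 5 genes whose transcripts changed are shown because each holds a motif known from one of the programmes described below. They come from RefSeq, build GRCm38.p6, and run 5′ to 3′ on the gene's strand over the 250 bases before the start site. Capitals mark TGATGNAAT (the composite element bound by ATF4 and C/EBP factors) or its reverse complement in Nupr1 (chr7:126625471-126625720, minus strand), Aars (chr8:111033592-111033841, plus strand) and Gars (chr6:55037751-55038000, plus strand). In Hmgcs1 (chr13:119690101-119690350, plus strand) they mark TCACNCCAC, the sterol response element. In Mt2 (chr8:94172368-94172617, plus strand) they mark TGCNCNC on either strand. This pattern is looser than the core of the metal response element, so a marked stretch need not be such an element.
Nupr1: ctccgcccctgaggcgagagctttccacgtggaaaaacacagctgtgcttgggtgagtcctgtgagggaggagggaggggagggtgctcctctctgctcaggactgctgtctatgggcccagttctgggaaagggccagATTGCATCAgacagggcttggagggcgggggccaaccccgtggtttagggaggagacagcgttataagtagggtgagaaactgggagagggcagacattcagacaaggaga
Aars: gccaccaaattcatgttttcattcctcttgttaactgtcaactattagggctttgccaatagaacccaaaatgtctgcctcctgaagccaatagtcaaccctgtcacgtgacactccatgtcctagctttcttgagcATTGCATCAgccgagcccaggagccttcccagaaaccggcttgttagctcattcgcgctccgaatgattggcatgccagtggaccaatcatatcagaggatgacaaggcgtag
Gars: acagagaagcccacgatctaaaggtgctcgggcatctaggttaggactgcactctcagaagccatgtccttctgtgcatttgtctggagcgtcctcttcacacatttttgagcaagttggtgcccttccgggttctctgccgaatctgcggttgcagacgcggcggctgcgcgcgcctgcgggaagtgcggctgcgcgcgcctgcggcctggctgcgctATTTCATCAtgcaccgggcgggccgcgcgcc
Hmgcs1: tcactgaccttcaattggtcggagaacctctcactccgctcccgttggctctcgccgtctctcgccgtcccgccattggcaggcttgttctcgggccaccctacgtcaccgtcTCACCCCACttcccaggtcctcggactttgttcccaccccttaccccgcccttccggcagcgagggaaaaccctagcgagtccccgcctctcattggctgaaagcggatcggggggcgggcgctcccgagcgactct
Mt2: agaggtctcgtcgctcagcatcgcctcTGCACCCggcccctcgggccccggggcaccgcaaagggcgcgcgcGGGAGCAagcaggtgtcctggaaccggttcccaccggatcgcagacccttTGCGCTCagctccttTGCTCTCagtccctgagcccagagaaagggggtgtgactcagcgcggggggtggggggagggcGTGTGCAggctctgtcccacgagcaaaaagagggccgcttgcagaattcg

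Over the same 250 bases of all 32851 RefSeq promoters searched on both strands, 0.816% held TGATGNAAT, 1.05% held TCACNCCAC, and 4.65% held at least 3 copies of TGCNCNC, a motif so short that 44.4% held at least 1. Of the ATF4 target genes tested, 25 had a promoter sequence and 1 of them (Nupr1) held TGATGNAAT, while among aminoacyl-tRNA synthetases it was 2 of 12 (Aars and Gars). TCACNCCAC was found in 1 of 19 genes of cholesterol synthesis and uptake, Hmgcs1. Of 13 genes for metallothioneins and metal transporters, 8 held TGCNCNC. Mt2 held the most copies, with 5, beside 3 in Atp7a and 1 in Mt1. A match is a description of the letters, and its absence from this window says nothing about binding elsewhere.

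At rest, macrophages given metformin had more transcript of ATF4 target genes, of aminoacyl-tRNA synthetases, of metallothioneins and of the cell cycle inhibitor Cdkn1a than macrophages given vehicle. They had less transcript of cholesterol synthesis genes, of the genes that define the macrophage lineage, of MHC class II genes and of 13 of 30 cell cycle genes. Among genes with a mean of at least 5 TPM in 1 group and no overlap between groups, Trib3 had the largest rise on the log2(TPM + 1) scale, with 24.4 times the vehicle level in TPM, and Itgal the largest fall on that scale, with a vehicle level 15 times that with metformin.

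Values were read as TPM, transcript levels scaled for transcript length and library total, so that levels of different genes can be set side by side. The 6 resting libraries held 4.12 to 11.5 M reads on the listed transcripts. Macrophage genes were abundant in all 6, with Lyz2, encoding lysozyme, at 8949, 7696 and 9272 TPM with metformin, against 20298, 18987 and 21998 TPM with vehicle. No 2 libraries of a group were copies of each other, since their reads differed by at least 3.82 times the sampling variance. A change is the log2 ratio of metformin to vehicle on the log2(TPM + 1) scale from limma, which understates the change of genes near 1 TPM, and a gene rose or fell where its Benjamini-Hochberg adjusted p was under 0.05 (two-sided). Of 12514 genes that reached 1 TPM in at least 3 libraries, 4946 changed, or 39.5%: 2908 rose (23.2%) and 2038 fell (16.3%). Of these, 528 rose (4.22% of all genes tested) and 527 fell (4.21%) by at least 1 on the log2 scale, or 8.43% together, and the median absolute change of the genes called was 0.65. The 3 metformin and 3 vehicle values did not overlap for 57.8% of the genes. With so many genes called, counts within a gene list are to be read beside these shares. Under median-of-ratios scaling, in which each library is set to its median ratio against all others, 2381 genes rose and 2399 fell, and the median change over all genes was 0.01 where it is 0.08 here. In bulk RNA, fewer cells of a type and less RNA per cell cannot be told apart.

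**Figure D1:**
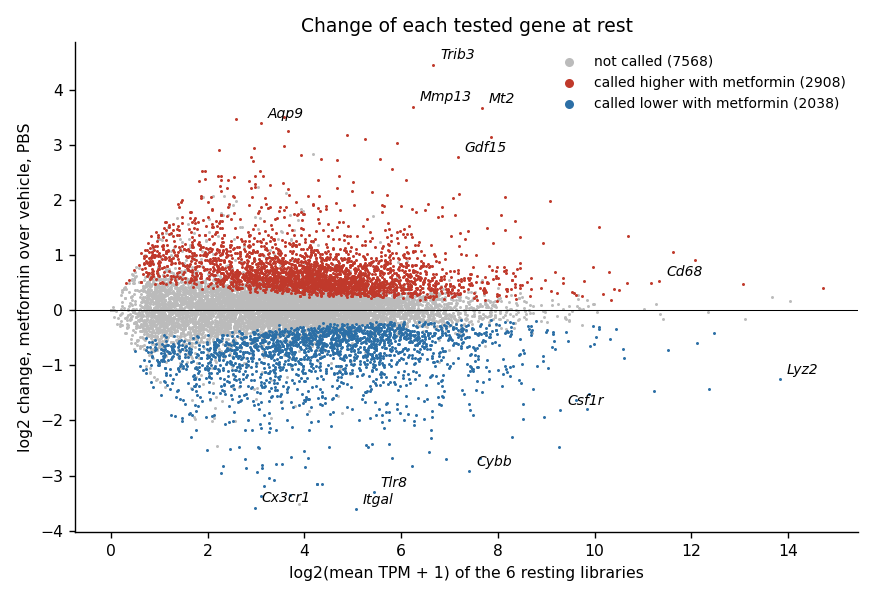
Change of each of the 12514 tested genes at rest. The x axis gives log2(mean TPM + 1) over the 6 resting libraries and the y axis the limma log2 change of metformin over vehicle. Red points are the 2908 genes that rose, blue points the 2038 that fell and grey points genes not called. Trib3 stands highest among the genes labelled, and Itgal and Cx3cr1 lowest.

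The ATF4 programme rose nearly throughout. Of 29 tested genes listed as ATF4 targets, 26 rose and 0 fell, with a median log2 change of 1.58, against 0.08 over all genes tested. Trib3 encodes a pseudokinase that ATF4 induces and that feeds back on AKT and ATF4 itself. Trib3 (NM_175093, chr2:152337425-152344060 in mm10) measured 192, 196 and 191 TPM in the metformin libraries, against 8.53, 8.88 and 6.31 TPM in the vehicle libraries. The 2 groups were far apart, and Trib3 averaged 24.4 times the vehicle level (log2 change 4.46 ± 0.11 SE, limma adjusted p = 2.4e-10). Ddit3, encoding CHOP, measured 428, 433 and 383 TPM with metformin, against 51.4, 54.9 and 33.9 TPM with vehicle (log2 change 3.15 ± 0.18 SE, limma adjusted p = 1.6e-07). Chac1, which encodes a glutathione-degrading enzyme induced downstream of ATF4 and CHOP, measured 25.1, 28 and 23.8 TPM with metformin, against 2.89, 4.07 and 1.75 TPM with vehicle (log2 change 2.81 ± 0.20 SE, limma adjusted p = 6.3e-07). Gdf15, a secreted stress hormone that acts on the hindbrain receptor GFRAL and is known to rise in people taking metformin, was at 258, 248 and 247 TPM with metformin, against 38, 37 and 32.7 TPM with vehicle. The Gdf15 groups did not overlap and differed 6.99-fold (log2 change 2.77 ± 0.09 SE, limma adjusted p = 1.6e-09).

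Atf4 transcript itself measured 476, 491 and 513 TPM with metformin, against 163, 160.4 and 159 TPM with vehicle, a 3.07-fold difference with little spread within either group (log2 change 1.61 ± 0.09 SE, limma adjusted p = 1e-07). Nupr1, a stress-induced chromatin protein whose promoter is printed above, averaged 58.8 ± 6.72 TPM with metformin and 17.9 ± 2.22 TPM with vehicle (SD, n = 3 each; log2 change 1.66). Atf5, a relative of Atf4, rose by 1.44 ± 0.10 (SE) on the log2 scale, and Atf3 by 0.68 ± 0.08. Among enzymes of amino acid synthesis, Asns, which makes asparagine, measured 105, 94.6 and 98.2 TPM with metformin, against 27.6, 25.7 and 24.5 TPM with vehicle (limma adjusted p = 1.1e-08). Phgdh, the first enzyme of serine synthesis, averaged 43.4 ± 3.0 TPM with metformin and 7.37 ± 2.14 TPM with vehicle (SD, n = 3 each). Psph, of the same route, and Shmt2 and Mthfd2, of the mitochondrial folate cycle, also rose, with log2 changes of 1.37, 0.86 and 1.59. Amino acid carriers rose as well: the cystine carrier Slc7a11 reached 29.1, 23.7 and 30.5 TPM with metformin, against 6.72, 6.14 and 6.73 TPM with vehicle, Slc3a2, its partner chain, changed by 1.34, Slc7a5, a carrier of large neutral amino acids, by 1.58, and the arginine carrier Slc7a1 by 1.89. Feedback genes followed the same direction: Ppp1r15a, encoding the GADD34 subunit that returns eIF2α to its unphosphorylated state, measured 148, 134 and 135 TPM with metformin, against 42.7, 37.5 and 35.7 TPM with vehicle (log2 change 1.82 ± 0.08 SE, limma adjusted p = 3.3e-08), and Sesn2, an inhibitor of mTORC1, changed by 1.92 ± 0.16. The 3 tested members that did not pass the test were Pck2 (log2 change 0.13), Ddit4 (0.17) and Cebpb (-0.42). Fgf21, a hormone often induced with Gdf15, was too low to test: it had 7, 8 and 0 reads in the metformin libraries and 0, 0 and 0 in the vehicle libraries.

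**Figure D2:**
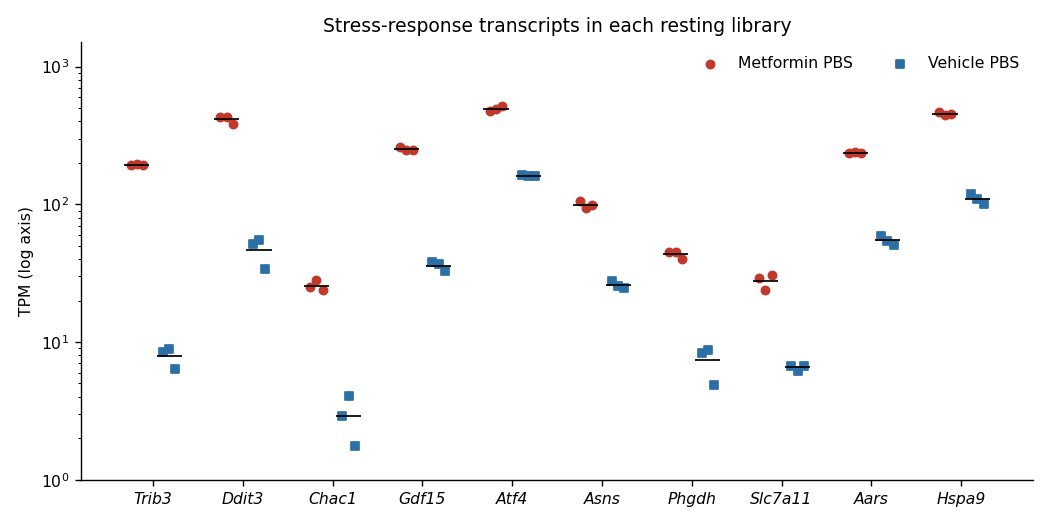
TPM (log axis) of 10 stress-response genes in each resting library. Red circles on the left of each pair are the 3 metformin libraries, blue squares on the right the 3 vehicle libraries, and black lines the means. For all 10 genes the 2 groups do not overlap, and the metformin libraries lie higher.

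Cytosolic aminoacyl-tRNA synthetases, the enzymes that charge tRNAs, rose with the ATF4 targets: 14 of 20 rose and 1 fell, with a median log2 change of 0.66. Aars, the alanine enzyme, measured 237, 239.5 and 235 TPM with metformin, against 58.7, 54.5 and 50.6 TPM with vehicle (log2 change 2.10 ± 0.08 SE, limma adjusted p = 5.4e-09). Wars, Eprs and Gars changed by 1.47, 1.38 and 1.25. The enzymes were not uniform: Qars, for glutamine, fell to 52.3, 46.1 and 54.8 TPM with metformin, against 61.9, 60.9 and 60.9 TPM with vehicle (log2 change -0.26 ± 0.09 SE, limma adjusted p = 0.031). Its adjusted p was 0.061 to 0.13 without any 1 of 5 resting libraries, and its call held without replicate 3 of Metformin PBS. Genes of the mitochondrial unfolded protein response rose in 7 of 12 cases and fell in 0 (1 under median-of-ratios scaling), and Atf5 and Gdf15, described above, are among the 7. Hspa9, the main chaperone of the mitochondrial matrix, measured 465, 446 and 454 TPM with metformin, against 119, 109 and 100.4 TPM with vehicle (log2 change 2.05 ± 0.07 SE, limma adjusted p = 1.9e-09), and the matrix protease Lonp1 averaged 59.5 ± 3.65 TPM with metformin and 26.3 ± 1.22 TPM with vehicle (SD, n = 3 each; log2 change 1.15). Chaperones of the endoplasmic reticulum did not follow them: 3 of 16 rose and 7 fell, with a median of -0.29. Hsp90b1 was at 151, 117 and 109.8 TPM with metformin, against 289, 240.2 and 236 TPM with vehicle (log2 change -1.02 ± 0.12 SE, limma adjusted p = 5.4e-05), Calr changed by -0.84 and Sdf2l1 by -1.46, whereas Hspa5, encoding BiP, had a change of -0.32 that did not pass the test (limma adjusted p = 0.12, and 0.0088 without replicate 1 of Metformin PBS). The rises in that list included Herpud1 (0.73) and Sel1l (0.49), which act in the degradation of misfolded secretory proteins. Heat shock chaperones were split, with 4 of 14 risen and 2 fallen, among them the mitochondrial chaperonin Hspd1 (0.85) and the cytosolic Hspa8 (-0.68). Without replicate 3 of Vehicle PBS, or without replicate 1 of Metformin PBS, 2 of them rose and 1 fell, and 1 also fell without replicate 1 of Vehicle PBS or replicate 2 of Metformin PBS.

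Genes that bind or move metal ions rose more often than they fell: of 16 listed 9 rose and 1, the copper pump Atp7a, fell (-0.47, with a limma adjusted p of 0.062 to 0.11 when any 1 of the 6 libraries was left out). Mt2, encoding metallothionein 2, a small cysteine-rich buffer of zinc and copper whose promoter is printed above, measured 416, 401 and 316 TPM with metformin, against 32.8, 30.9 and 23.2 TPM with vehicle, a 13-fold difference of means (log2 change 3.66 ± 0.22 SE, limma adjusted p = 1.9e-07). Its neighbour Mt1 measured 839.8, 911 and 835 TPM with metformin, against 193, 257 and 204 TPM with vehicle (log2 change 1.99 ± 0.15 SE, limma adjusted p = 1.2e-06). Slc30a1, the zinc exporter of the plasma membrane, rose to 58.4, 53.8 and 57.4 TPM with metformin, against 25, 22 and 22.7 TPM with vehicle. Slc11a1, an exporter of iron and manganese from phagosomes, changed by 0.75 ± 0.09. Of 20 listed NRF2 targets 9 rose and 4 fell. Hmox1, which degrades heme, measured 1483, 1595 and 1757 TPM with metformin, against 459, 586 and 677 TPM with vehicle (log2 change 1.50 ± 0.14 SE, limma adjusted p = 7e-06). Prdx1, an abundant peroxidase, averaged 2377 ± 242 TPM with metformin and 931 ± 105 TPM with vehicle (SD, n = 3 each), and the quinone reductase Nqo1 changed by 1.28. The members that fell included Nfe2l2 (-0.46), which encodes NRF2 itself, and G6pdx (-0.93), the entry enzyme of the pentose phosphate route.

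Cholesterol synthesis and uptake fell as a group. Of 26 tested genes 19 fell and 1 rose (2 without replicate 1 of Vehicle PBS), with a median log2 change of -0.90. Pmvk, a kinase of the mevalonate route, measured 2.88, 3.19 and 1.06 TPM in the metformin libraries, against 12.4, 14.4 and 10.8 TPM in the vehicle libraries (log2 change -2.06 ± 0.30 SE, limma adjusted p = 0.00021). Cyp51, which removes a methyl group from lanosterol, measured 6.24, 5.08 and 5.62 TPM with metformin, against 18.4, 16.7 and 17.3 TPM with vehicle (log2 change -1.48 ± 0.10 SE, limma adjusted p = 5.4e-07). In both genes the groups did not overlap and the metformin libraries were lower. Along the pathway, Fdps changed by -1.61, Dhcr7 by -1.42 and the cholesterol carrier Stard4 by -1.55. The regulators fell too: Srebf2, encoding the transcription factor of the pathway, averaged 24.8 ± 0.83 TPM with metformin and 48.3 ± 1.9 TPM with vehicle (SD, n = 3 each; limma adjusted p = 1.2e-05), and its retention factor Insig1 changed by -1.12. Hmgcs1, the early enzyme whose promoter is printed above, changed by -0.40 ± 0.11, with an adjusted p of 0.068 without replicate 3 of Vehicle PBS and 0.059 without replicate 2 of Metformin PBS in limma.

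Other lipid genes were split. Of 15 genes of fatty acid synthesis and desaturation 4 fell, among them the desaturases Fads2 (-2.01) and Scd2 (-1.04), and 1, Acss2, rose (0.74), while the synthase Fasn (-0.07) did not pass the test. Of 18 genes for LXR targets and lipid efflux, 9 fell and 5 rose. Apoc2, a cofactor of lipoprotein lipase, changed by -2.47 ± 0.19. Abca1, the cholesterol exporter, measured 13.5, 15.9 and 13.1 TPM with metformin, against 35, 32.7 and 30.1 TPM with vehicle (log2 change -1.15 ± 0.16 SE, limma adjusted p = 0.00017). Apoe, the main apolipoprotein of macrophages, measured 2433, 3081 and 3057 TPM with metformin, against 7275, 7665 and 7970.3 TPM with vehicle (log2 change -1.43 ± 0.13 SE, limma adjusted p = 5.1e-06). The rises in that list included the scavenger receptor Cd36 (0.77) and the endosomal cholesterol transporter Npc1 (0.59).

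**Figure D3:**
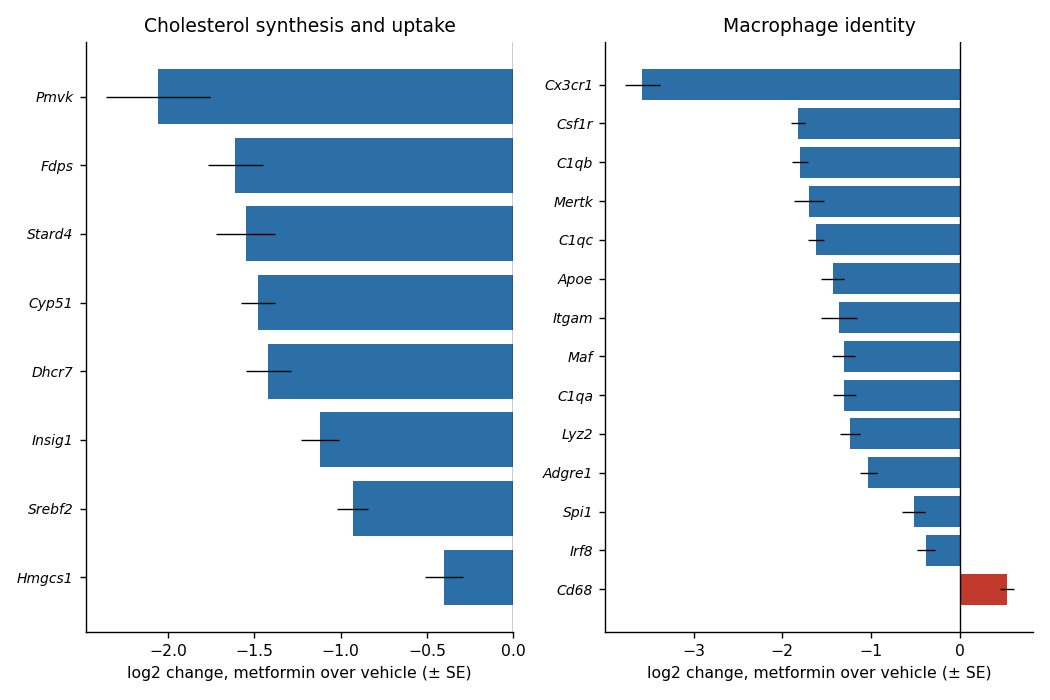
Log2 change of metformin over vehicle in PBS, with limma standard errors, for 8 genes of cholesterol synthesis and uptake (left) and 14 of macrophage identity (right) named in the text. Blue bars fell and red bars rose. All 8 bars on the left fell, but they were picked from 26 tested genes, of which 19 fell, 1 rose and 6 were not called. Cd68 is the 1 rise on the right.

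Macrophage identity genes fell almost throughout: of 19 tested, 18 fell and 1 rose, with a median log2 change of -1.30. Csf1r, the M-CSF receptor, measured 273, 276 and 275 TPM in the metformin libraries, against 949.6, 1017 and 949 TPM in the vehicle libraries (log2 change -1.82 ± 0.08 SE, limma adjusted p = 3.3e-08). The 3 chains of complement C1q, C1qa, C1qb and C1qc, changed by -1.30, -1.80 and -1.62, and C1qb averaged 409.9 ± 10.9 TPM with metformin and 1427 ± 24.2 TPM with vehicle (SD, n = 3 each). Cx3cr1, the fractalkine receptor, measured 0.181, 0.168 and 0.25 TPM with metformin, against 11.2, 16.2 and 13.1 TPM with vehicle (log2 change -3.58 ± 0.20 SE, limma adjusted p = 1.2e-07). The metformin values of Cx3cr1 rest on 6, 3 and 3 reads, against 334, 268 and 322 reads with vehicle. Mertk, a receptor for apoptotic cells, changed by -1.70 ± 0.17, Adgre1, encoding F4/80, by -1.03 ± 0.10, and Itgam, encoding CD11b, by -1.36 ± 0.20. The lineage factors Maf, Spi1 and Irf8 changed by -1.31, -0.52 and -0.38. Lyz2, given above for each library, changed by -1.24 ± 0.11 and remained among the most abundant transcripts in both groups. The exception was Cd68, a lysosomal membrane glycoprotein, which measured 3007, 3085 and 3054 TPM with metformin, against 2000.1, 2233 and 2118 TPM with vehicle (log2 change 0.53 ± 0.08 SE, limma adjusted p = 0.00021).

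Markers of other cell types differed widely in summed level between lists. For fibroblast and stromal markers, and for osteoclast markers, the sums of the metformin and vehicle libraries overlapped. Over 12 neutrophil markers the summed level was 7.87 to 24.0 TPM in the metformin libraries, against 41.7 to 104 TPM in the vehicle libraries; 3 of 6 tested fell, and Ly6g was at 0 in all 6. Over 12 fibroblast and stromal markers it was 166 to 420 TPM with metformin, against 361 to 672 TPM with vehicle; 4 of 11 tested fell, and Lum was at 0. That count of falls was 0 without replicate 1 of Vehicle PBS, 1 without replicate 3 of Metformin PBS, and 2 without replicate 2 of Vehicle PBS, without replicate 1 of Metformin PBS, with no filter on low values or with limma's robust option. With the replicate number added to the model as a block it was 7. Over 10 mast cell and basophil markers it was 12.9 to 16.5 TPM with metformin, against 2.73 to 4.15 TPM with vehicle. With metformin this was mostly Kit, at 14.8, 11.5 and 14 TPM. With vehicle Kit was at 1.58, 1.5 and 1.39 TPM, and other markers made up much of the sum. Mcpt4, Tpsb2, Cma1, Fcer1a and Ms4a2 of that list were at 0. Over 10 erythroid and megakaryocyte markers it was 67.8 to 149 TPM with metformin, against 32.6 to 65.5 TPM with vehicle, mostly Pf4. Pf4 had a log2 change of 1.15, a call lost without either of 2 vehicle or 2 metformin libraries (limma adjusted p = 0.063 to 0.18). Over 9 osteoclast markers it was 283 to 334 TPM with metformin, against 319.7 to 379.7 TPM with vehicle. Lymphocyte and dendritic cell markers summed to at most 3.08 TPM in each of the 6 libraries. What part these cells had in the changes above was not tested.

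Genes of antigen presentation by MHC class II fell in 7 of 11 cases and rose in 2. H2-Eb1, a class II beta chain, measured 2.73, 2.65 and 2.26 TPM with metformin, against 21.5, 28 and 16.5 TPM with vehicle (log2 change -2.67 ± 0.23 SE, limma adjusted p = 3.7e-06). H2-Ab1 changed by -1.42 and Ciita, the class II transactivator, by -1.17. The costimulatory receptor ligand Cd86 went the other way, at 32.5, 30.6 and 29.8 TPM with metformin, against 7.25, 8.27 and 4.81 TPM with vehicle (log2 change 2.07 ± 0.15 SE, limma adjusted p = 1.2e-06), as did Cd40 (1.38). Inflammatory genes were mixed, with 7 of 28 risen and 6 fallen, or 46.4% called beside 39.5% of all genes. The rises numbered 4 without replicate 3 of Vehicle PBS, replicate 1 of Metformin PBS or replicate 2 of Metformin PBS. Nlrp3, the inflammasome sensor, averaged 3.13 ± 0.446 TPM with metformin and 12.1 ± 1.27 TPM with vehicle (SD, n = 3 each; log2 change -1.67), and Nfkbia, the inhibitor of NF-κB, changed by -1.33. The chemokine Ccl3 rose (1.31), and Ccl9 (-1.56) and the cytokine Il1b (-1.17) fell. Immediate early genes split evenly, with 10 of 30 risen and 10 fallen. Klf4 measured 66.7, 77.2 and 57.8 TPM with metformin, against 15, 17.9 and 11.1 TPM with vehicle (log2 change 2.14 ± 0.19 SE, limma adjusted p = 3.7e-06) and Myc changed by 1.45, while Mcl1, a survival factor, (-0.90) and Zfp36, which destabilises cytokine mRNAs, (-1.01) fell. Interferon-stimulated genes gave 3 rises among 25 tested and 0 falls, beside 39.5% of all genes called. Rsad2, an antiviral enzyme, changed most of the 3 (1.04). Without replicate 2 or 3 of Vehicle PBS, or replicate 1 of Metformin PBS, 1 rose, and the falls numbered 1 without replicate 3 of Vehicle PBS and 2 without replicate 1 of Metformin PBS. Genes of alternative activation moved both ways, with 3 of 11 risen and 2 fallen, or 45.5% beside 39.5% of all genes. Clec10a (1.60) and Pparg (0.85) were among the rises, and the scavenger receptors Stab1 (-1.83) and Msr1 (-0.80) were the falls.

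Transcripts of AMPK, the kinase most often named with metformin, were not called more often than other genes. Of 13 tested genes for AMPK subunits and upstream kinases 2 rose and 2 fell, or 30.8% called, beside 39.5% of all genes. Prkaa1, the main catalytic subunit, measured 19.5, 16.8 and 19.5 TPM with metformin, against 22.4, 20.2 and 20.1 TPM with vehicle and did not pass the test (log2 change -0.16 ± 0.10 SE, limma adjusted p = 0.22). Prkaa2, the other catalytic subunit, was low but rose, at 2.69, 2.36 and 3.59 TPM with metformin, against 0.276, 0.222 and 0.52 TPM with vehicle (log2 change 1.53 ± 0.27 SE, limma adjusted p = 0.00091). Prkab1, a regulatory subunit, averaged 30.8 ± 1.06 TPM with metformin and 20.2 ± 0.222 TPM with vehicle (SD, n = 3 each; limma adjusted p = 0.0002). The subunit gene Prkag1 (-0.39) and the activating kinase Camkk2 (-0.59) fell, Prkag1 with an adjusted p of 0.074 without replicate 1 of Vehicle PBS and 0.06 without replicate 1 of Metformin PBS in limma. Under median-of-ratios scaling 2 members rose and 4 fell, and over all settings 1 to 4 rose and 1 to 4 fell. The remaining tested members, Prkab2, Prkag2, Stk11, Strada, Stradb, Cab39, Cab39l and Map3k7, had changes between -0.26 (Cab39l) and 0.40 (Stradb) that did not pass the test. Of metformin's described targets, Psenen, encoding PEN2, had a change of 0.29 and Gpd2 of 0.14, neither past the test. Atp6ap1, which PEN2 binds, rose by 0.21 ± 0.06, a call lost under median-of-ratios scaling (limma adjusted p = 0.12), without replicate 2 of Vehicle PBS (0.054) and without replicate 1 of Metformin PBS (0.068). Of the 10 genes listed as targets or carriers 7 stayed under 1 TPM in all 6 libraries, among them the carriers Slc22a2, Slc22a3, Slc29a4, Slc47a1, Slc47a2 and Slc19a3, each at or below 0.12 TPM. Regulators of mTORC1 changed unevenly: the Rag GTPases Rraga (0.83) and Rragd (0.81) and Sesn2 (1.92) rose, while Sesn1 (-1.42), Deptor (-1.50) and Lamtor4 (-0.87) fell.

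Of 36 subunits of respiratory complex I, the enzyme that metformin inhibits at high concentration, 3 rose and 6 fell, or 25% beside 39.5% of all genes. Ndufa2 (-0.63) and Ndufs8 (-0.61) fell and Ndufv2 (0.38) rose. The rises numbered 1 under median-of-ratios scaling, without replicate 3 of Vehicle PBS or without replicate 1 of Metformin PBS, and with the resting groups fitted alone 5 rose and 10 fell. Of 38 subunits of complexes II to V 6 rose and 6 fell, or 31.6%. The complex III subunits Uqcrh (-0.97) and Uqcrq (0.95) moved in opposite directions. The split of these 38 turned on the setting: 4 rose and 10 fell under median-of-ratios scaling, 13 fell with the resting groups fitted alone, and 3 rose without replicate 2 of Vehicle PBS. Cox6a2, the heart and muscle form of a cytochrome oxidase subunit, was in neither list and was among the largest rises, at 23.9, 20.9 and 17.7 TPM with metformin, against 1.34, 1.04 and 0.465 TPM with vehicle (log2 change 3.50 ± 0.19 SE, limma adjusted p = 1.2e-07). Ucp2, an inner membrane carrier, fell to 92.7, 112 and 110.0 TPM with metformin, against 466, 579.9 and 523 TPM with vehicle (log2 change -2.31 ± 0.19 SE, limma adjusted p = 2.6e-06). Of 26 genes of glucose uptake and glycolysis 10 rose and 5 fell. Pfkp, a phosphofructokinase, rose (0.99), the aldolase Aldoc fell (-1.31), and of the glucose carriers Slc2a3 rose (1.16) and Slc2a6 fell (-2.18). Txnip, an inhibitor of glucose uptake, averaged 78.1 ± 4.79 TPM with metformin and 147 ± 6.42 TPM with vehicle (SD, n = 3 each; log2 change -0.90). Of 19 hypoxia-response genes 8 rose and 1 fell, among them Ero1l, an oxidase of the endoplasmic reticulum, at 41.4, 39.9 and 40.8 TPM with metformin, against 11, 9.4 and 12.1 TPM with vehicle (log2 change 1.83 ± 0.12 SE, limma adjusted p = 3.2e-07), and Hif1a (0.86), the hypoxia factor itself. Genes of the tricarboxylic acid cycle (5 risen and 3 fallen of 20) and of fatty acid oxidation (2 and 4 of 18) moved in both directions. The shares called were 40% and 33.3%, beside 39.5% of all genes. Under median-of-ratios scaling 4 genes of the cycle rose and 7 fell, and with the resting groups fitted alone 5 fell. For fatty acid oxidation 1 rose and 2 fell without replicate 3 of Metformin PBS, and 1 rose without replicate 3 of Vehicle PBS. Of 19 genes of mitochondrial biogenesis and dynamics 7 rose, among them the coactivator Ppargc1b (1.11), and 3 fell, among them Pink1 (-0.89). The rises numbered 4 under median-of-ratios scaling, and 4 without replicate 2 of Vehicle PBS or replicate 2 of Metformin PBS.

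Lysosomal genes, the other concern of the study, also moved both ways. Of 41 genes of the lysosomal CLEAR network, the set driven by TFEB and TFE3, 14 rose and 12 fell, with a median log2 change of -0.04. Scpep1, a carboxypeptidase, measured 725, 642 and 698 TPM with metformin, against 297, 288 and 297 TPM with vehicle (log2 change 1.22 ± 0.08 SE, limma adjusted p = 2.7e-07), and Gusb, which encodes beta-glucuronidase, measured 212, 218 and 199.6 TPM with metformin, against 418, 421 and 431 TPM with vehicle (log2 change -1.01 ± 0.06 SE, limma adjusted p = 2.7e-07). Tfeb itself changed by -0.36 and Mitf by -0.83, both falls, Tfeb with an adjusted p of 0.077 to 0.094 in limma without replicate 2 of Vehicle PBS or replicate 1 or 3 of Metformin PBS, whereas Tfe3 (-0.05) did not pass the test. Subunits of the V-ATPase, the proton pump of the lysosome, rose in 8 of 17 cases and fell in 1, by between 0.21 for Atp6ap1 and 0.87 for Atp6v1h. Under median-of-ratios scaling 4 of these subunits rose, and 1 fell. Without replicate 2 of Vehicle PBS, or without replicate 1 of Metformin PBS, 5 rose and 0 fell, and the fall was also lost without replicate 3 of Vehicle PBS or replicate 3 of Metformin PBS. Of 29 autophagy genes 6 rose and 7 fell, or 44.8% beside 39.5% of all genes. Under median-of-ratios scaling 4 rose and 11 fell. Sqstm1, the receptor p62, averaged 1268 ± 41 TPM with metformin and 736 ± 47.5 TPM with vehicle (SD, n = 3 each; log2 change 0.79), while Calcoco1 changed by -0.99 and Atg2a by -0.82.

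Of 30 genes of the cell cycle and DNA replication 13 fell and 4 rose (2 without replicate 1 of Vehicle PBS or without replicate 1 of Metformin PBS). The mitotic genes Plk1 (-1.39) and Ccna2 (-1.23) fell, and Rrm2, a subunit of ribonucleotide reductase, changed by -1.29. Cdkn1a, the cell cycle inhibitor p21, measured 442, 406 and 389 TPM with metformin, against 130.0, 126 and 117 TPM with vehicle (log2 change 1.72 ± 0.09 SE, limma adjusted p = 5.7e-08). Of 15 clock and Bhlhe genes 8 rose and 3 fell, with Bhlhe41 at 128, 136 and 144 TPM with metformin, against 62.4, 52.7 and 63.9 TPM with vehicle (log2 change 1.18 ± 0.12 SE, limma adjusted p = 1.1e-05) and Cry1 changing by 1.17. Dot1l, the H3K79 methyltransferase studied elsewhere in the series, averaged 47.1 ± 0.993 TPM with metformin and 27 ± 2.66 TPM with vehicle (SD, n = 3 each; log2 change 0.79 ± 0.14 SE, limma adjusted p = 0.001), and its partner Mllt3 changed by 1.67.

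**Figure D4:**
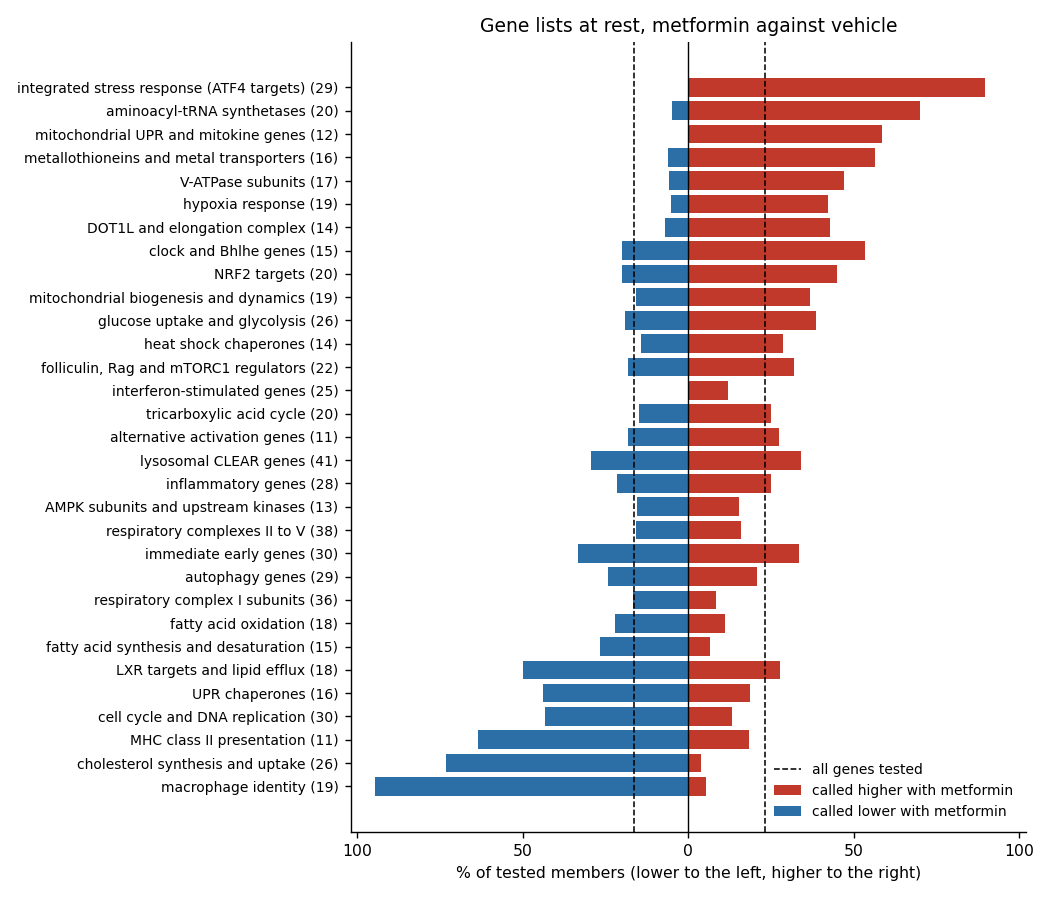
Share of the tested members of each gene list that rose (red, to the right) or fell (blue, to the left) with metformin in PBS, for lists with at least 10 tested members, whose number stands in brackets. Dashed lines mark the shares over all 12514 genes, 23.2% higher and 16.3% lower. ATF4 targets reach farthest to the right, and macrophage identity and cholesterol genes farthest to the left.

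Beyond these lists, the 15 largest rises among genes with a mean of at least 5 TPM in 1 group and no overlap between groups held several secreted and membrane proteins. Mmp13, a collagenase, measured 125, 149 and 146 TPM in the metformin libraries, against 10.4, 11.3 and 8.1 TPM in the vehicle libraries (log2 change 3.69 ± 0.22 SE, limma adjusted p = 2.1e-07). Aqp9, a channel for water and glycerol, measured 14.8, 14.8 and 14.1 TPM with metformin, against 0.45, 0.815 and 0.218 TPM with vehicle. Slc43a3, a purine base carrier, averaged 51.9 ± 1.16 TPM with metformin and 4.92 ± 1.18 TPM with vehicle (SD, n = 3 each; 10.5-fold). Ptgir, the prostacyclin receptor, changed by 2.74, Cd24a by 2.74, the granzyme B inhibitor family member Serpinb9b by 2.98, Osbp2, an oxysterol-binding protein, by 2.70, Gng11, a G protein gamma subunit, by 2.57, and Lrrc14b by 3.11. For Lrrc14b all 3 metformin libraries read 69.1, 62.3 and 70.0 TPM, against 7.0, 6.71 and 6.93 TPM in the vehicle libraries. These 9 genes joined Trib3, Mt2, Cox6a2, Ddit3, Chac1 and Gdf15, described above.

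The 15 largest falls were led by Itgal, the alpha chain of the integrin LFA-1 (NM_008400, chr7:127296260-127335137), which measured 4.22, 3.85 and 4.1 TPM in the metformin libraries, against 60.6, 58.2 and 63.7 TPM in the vehicle libraries (log2 change -3.61 ± 0.10 SE, limma adjusted p = 4e-10). Tlr8, an endosomal receptor of the Toll family, measured 6.77, 7.0 and 7.19 TPM with metformin, against 77.5, 70.6 and 84.5 TPM with vehicle (log2 change -3.29 ± 0.19 SE, limma adjusted p = 2e-07). Cybb, the catalytic subunit of the phagocyte NADPH oxidase, measured 44.2, 33.1 and 38.8 TPM with metformin, against 287, 281 and 328 TPM with vehicle (log2 change -2.92 ± 0.10 SE, limma adjusted p = 3.4e-09). Of the tetraspan family, Ms4a4a changed by -3.35 and Ms4a6b by -2.94. The ubiquitin ligase gene March1, which sends MHC class II to degradation, changed by -3.20, Aif1, encoding Iba1, by -2.87, Gmfg, a regulator of actin branching, by -2.87, Fabp7, a fatty acid carrier, by -2.84, and Nxpe5 by -2.96. Cd300ld3, Cd300ld4 and Cd300ld5 each changed by -3.16, but Cd300ld4 and Cd300ld5 carried identical values in every resting library, so that their reads cannot be told apart. Ms4a6b and Serpinb9b also have close relatives, and how shared reads were divided is not stated. Cx3cr1, described above, was also among the 15. At the edge of the call, Kpna1 passed with a log2 change of 0.44, and Ippk just missed it with 0.35.

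The metformin effect was also measured in cells given MSUc, with 6 libraries that are separate from the resting ones. There 3700 genes rose and 1750 fell, or 43.6% of those tested. Of the 2908 genes that rose at rest, 1902 also rose with MSUc (65.4% of the first list and 51.4% of the second), where 29.6% of all genes rose. Of the 2038 that fell at rest, 981 also fell with MSUc (48.1% of the first list and 56.1% of the second), where 14.0% of all genes fell. The test of the difference itself, the interaction, called 1532 genes or 12.2%, and 1017 of these were also called at rest. It was higher with MSUc for 941 genes (7.52%) and lower for 591 (4.72%). The interaction and the resting change share the resting libraries. The count of 1532 was 999 without replicate 1 of Metformin PBS and 1947 without replicate 1 of Metformin MSUc. That library stood apart from its group: its reads differed from those of the other 2 by 13.0 and 17.3 times the sampling variance, against at most 7.38 times in any other pair of libraries of 1 group.

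Of the 29 ATF4 targets 18 rose and 3 fell with MSUc, where 26 rose and 0 fell at rest, and the interaction was lower with MSUc for 16 and higher for 1. Without replicate 1 of Metformin MSUc these counts were 19 higher and 2 lower with MSUc, with the interaction higher for 0 and lower for 16. Gdf15 measured 449, 506 and 564 TPM with metformin and MSUc, against 433, 462 and 474 TPM with vehicle and MSUc, so that metformin made a log2 difference of 0.14 there and 2.77 at rest (interaction -2.63, limma adjusted p = 7.5e-07). The vehicle libraries with MSUc lay above all 3 resting metformin libraries for Gdf15. Atf4 behaved alike, with 598, 478 and 495 TPM with metformin and MSUc, against 549, 474 and 504 TPM with vehicle and MSUc (interaction -1.57, limma adjusted p = 1.9e-05). For Trib3 the metformin difference remained, at 1.81 with MSUc and 4.46 at rest (interaction -2.65). Of the 26 cholesterol genes 15 fell with MSUc and 19 at rest, and the interaction was called for 4. Without replicate 1 of Metformin MSUc the counts were 0 higher and 16 lower with MSUc, with the interaction higher for 6 and lower for 1. Cyp51 changed by -1.20 with MSUc and -1.48 at rest (interaction adjusted p = 0.23 in limma). Of the 19 identity genes 13 fell with MSUc and the interaction was higher with MSUc for 7, among them Csf1r (-1.17 with MSUc, -1.82 at rest) and Cx3cr1 (-0.64 and -3.58). Cx3cr1 was at 0.821, 1.4 and 1.2 TPM in the vehicle libraries with MSUc, far below the 11.2, 16.2 and 13.1 TPM of the resting vehicle libraries. Without replicate 1 of Metformin MSUc the counts for identity genes were 1 higher and 13 lower with MSUc, with the interaction higher for 7 and lower for 0.

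Of the genes called at rest, 210 were called in the other direction with MSUc. They were 93 of the 2908 that rose at rest (3.2%), where 14.0% of all genes fell with MSUc. The other 117 were among the 2038 that fell at rest (5.74%), where 29.6% of all genes rose with MSUc. Turning was thus rarer than calls in those directions over all genes. Tifab, an inhibitor of TRAF6 signalling, measured 5.25, 4.4 and 4.6 TPM with metformin and MSUc, against 0.974, 0.602 and 0.606 TPM with vehicle and MSUc, a log2 change of 1.74. At rest it measured 6.39, 6.55 and 7.34 TPM with metformin, against 24.7, 25.6 and 19.9 TPM with vehicle, a change of -1.65 (interaction 3.39, limma adjusted p = 3.2e-06). Procr, the endothelial protein C receptor, changed by -0.47 with MSUc and 1.84 at rest, and AV051173 by -1.75 and 2.29.

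**Figure D5:**
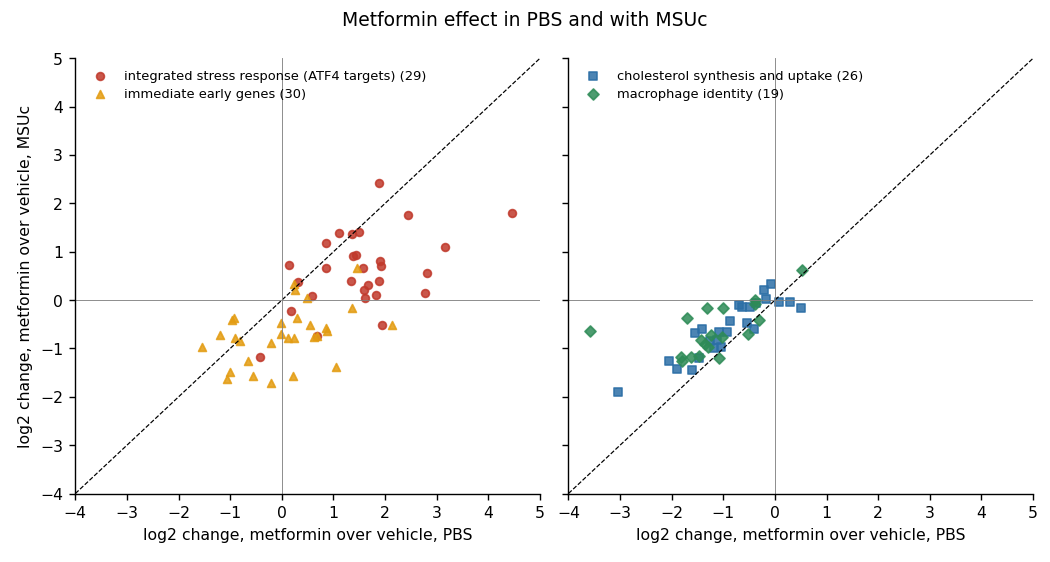
Log2 change of metformin over vehicle with MSUc (y axis) against that in PBS (x axis) for single genes of 4 lists, with the number tested in brackets. The dashed line marks equal changes. Most ATF4 targets lie right of 0 and below the line, and most cholesterol and identity genes lie left of 0.

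Loss of the AMPK catalytic subunit alpha 1 was measured at rest in a separate experiment. Prkaa1, the gene named in its labels, averaged 26 ± 1.56 TPM in the libraries labelled Ampka1KO and 24.5 ± 1.21 TPM in those labelled Ampka1WT (SD, n = 3 each; log2 change 0.08, limma adjusted p = 0.43), so the transcript level did not separate the genotypes, and where the deletion lies in the transcript is not given in the sources used here. The libraries labelled Ampka1KO and Ampka1WT had Ddx3y at 18.4 to 32.4 TPM and Xist at or below 0.01 TPM, whereas the 12 libraries of the metformin experiment had Xist at 34.0 to 74.1 TPM and Ddx3y at or below 0.04 TPM. Sex, medium, M-CSF dose and experiment thus all differ between the comparisons, and cannot be told apart from genotype against drug, so values are only set side by side. In the libraries labelled Ampka1KO 6117 of 12834 genes were called, or 47.7%, with 4342 higher (33.8%) and 1775 lower (13.8%). Of the 2760 genes that rose with metformin at rest and were tested in both, 1222 were also higher in the libraries labelled Ampka1KO (44.3% of the first list and 30.9% of the second), where 32.7% of the shared genes were higher. Of the 2023 that fell with metformin, 671 were lower (33.2% of the first list and 39.1% of the second), where 14.2% of the shared genes were lower. Another 458 of the 2023 were higher (22.6%), where 32.7% of the shared genes were higher. Fibroblast and stromal markers were higher in 10 of 11 cases there, with a median log2 change of 3.56. Neutrophil markers were higher in 6 of 6 cases (median 2.54), erythroid and megakaryocyte markers in 2 of 2 (2.57), the mast cell and basophil marker tested in 1 of 1 (1.57), and osteoclast markers in 4 of 6, with 1 lower (0.86). The part of these cells in the values was not tested. ATF4 targets were higher in 22 of 28 cases and lower in 0. Trib3 averaged 21.6 ± 8.1 TPM in the libraries labelled Ampka1KO and 8.51 ± 1.06 TPM in those labelled Ampka1WT (SD, n = 3 each; log2 change 1.19), beside 4.46 for metformin. Cholesterol genes were lower in 11 cases and higher in 2, with Pmvk at -0.71 beside -2.06 for metformin. Identity genes were lower in 12 cases and higher in 4, with Csf1r at -0.82 beside -1.82 for metformin. Mt1 stood at 0.17 beside 1.99, and Slc43a3 at -0.20 beside 3.18, both without a call in the libraries labelled Ampka1KO.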

How the data were processed

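Per the labels' protocols, libraries were prepared from poly-A RNA with dUTP marking of the strand. Alignment used STAR and quantification HOMER on mm10, per the submitters' processing notes; versions are not given in the sources used here. The deposited header names no unit. The values were taken as TPM: multiplied by transcript length, the deposited values fall on multiples of 1 read in each library, and the authors kept 1 RefSeq transcript for each of 24940 symbols, which sum to 546072 to 558464 per library. How reads of similar genes were divided is not stated.

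Genes with at least 1 TPM in at least 3 of 12 libraries were fitted on log2(TPM + 1) with limma 3.58.1 (trend; R 4.3.3), 1 mean for each of 4 groups, with Benjamini-Hochberg adjustment over all tested genes. Ampka1 libraries were fitted in the same way in their own table, with all 12 of its libraries together, those given MSUc included. Totals of 4.12 to 11.5 M recovered reads limit precision at low levels. On a simulated table with 200 changed genes, 12285 genes were tested and 10 of 129 calls were false. Every gene there had the same spread beyond sampling, and far fewer genes changed than were called here. The rate may therefore not carry over to these data. Genes and lists were chosen with earlier results of these data known. Named by rule were 189 genes: the 15 largest rises and falls, the 4 of smallest p in each of 39 lists, all tested AMPK and metformin target genes, 3 on each side of the threshold, and the 5 of smallest p for the interaction. Some genes are not reported here. Another 57 were named after their values were seen, for their role. Promoters were searched on both strands. Alternatives changed the pseudocount (0.25 or 5), the filter (none, or 5 TPM), the scaling, the groups fitted, the replicate block, limma's robust option, recovered reads with voom, and each library in turn.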

Additional observations from a re-analysis of the deposited data

Results flagged for a closer look

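The effect of metformin differed between MSUc and PBS for 1532 genes in limma's test of the interaction (Benjamini-Hochberg adjusted p under 0.05), the metformin change with MSUc minus that in PBS. Among the 15 largest resting rises the difference was -2.65 for Trib3, -2.40 for Mmp13, -1.85 for Mt2, -2.05 for Ddit3, -0.89 for Serpinb9b, -2.25 for Chac1, -2.63 for Gdf15, -1.10 for Cd24a, -1.76 for Ptgir and -0.77 for Osbp2. Of these 15 genes, 14 also rose with MSUc.

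Among the 15 largest resting falls, all 15 of which also fell with MSUc, the difference was 1.51 for Itgal, 2.94 for Cx3cr1, 1.37 for Tlr8, 1.82 for March1, 1.36 for each of the near copies Cd300ld3, Cd300ld4 and Cd300ld5, 2.01 for Ms4a6b, 0.91 for Cybb, 1.34 for Aif1 and 1.61 for Fabp7. These genes were chosen for their resting change, which the interaction subtracts, so the side to which it leans is not independent of the choice. The 5 genes with the smallest p of the interaction were Gdf15 and Trib3, given above, and Tifab (3.39), Procr (-2.31) and AV051173 (-4.04), of which the last 3 turned direction.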

How the results depend on the processing

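Between 3934 and 4181 genes were called at rest when 1 of the 6 resting libraries was left out, against 4946 with all 6. Other settings gave 4465 (at least 5 TPM) to 5914 (the resting groups fitted alone), and 4780 with median-of-ratios scaling, which moved the share of called genes that rose to 49.8%, where it is 58.8% as deposited. Of the calls made with all libraries, 78.5% to 98.7% were kept, depending on the setting. The counts without 1 library ranged from 999 to 1947 for the interaction, from 4640 to 5556 with MSUc, and from 5046 to 5543 for the libraries labelled Ampka1KO. Of 1170 recomputed counts of list members 100 moved by more than 1.5 times. For the 246 genes named, 3504 recomputed changes kept direction and side of the threshold, 106 lost the call, 36 gained one and 7 turned direction, none of these called. Map3k7 (0.02) was -0.05 with median-of-ratios scaling and -0.07 to 0.10 without 1 library, Itga2b (-0.15) was 0.31 on recovered reads with voom and -0.46 to 0.27 without 1 library, and Ddit4 (0.17) was -0.03 to 0.39 without 1 library. Adding the replicate block gave 5189 genes at rest, and 1753 for the interaction. Same-numbered resting libraries deviated together with r between 0.096 and 0.147, and over all 18 same-numbered pairs r ran from -0.031 to 0.193. It was negative only between replicate 1 of Metformin MSUc and replicate 1 of Vehicle PBS or of Metformin PBS. The labels do not say what a number shares, so it is taken as a number only and is left out of the main fit. All 3 metformin libraries correlated best with the vehicle library of their own number.

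On simulated tables with 3 libraries a group, 27 of 31 genes changed by -2 on the log2 scale were called and 7 of 33 changed by -0.5; depth was not varied there. With 3 against 3 libraries an exact permutation test of 1 gene cannot give a p under 0.1, so calls rest on the spread shared across genes.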

Other observations

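Families of phagocyte genes outside the lists above were looked at by symbol after their values had been seen. Of 4 Fc gamma receptor genes, whose products bind immune complexes, all 4 fell, with Fcgr3 at 146, 139 and 155 TPM with metformin, against 619.6, 536 and 589.6 TPM with vehicle and Fcgr4 changing by -0.75. Of 7 genes looked up for the phagocyte NADPH oxidase, which makes superoxide, and its relatives, 5 fell, Cyba and Cybb among them, with Ncf1 at 71, 78.6 and 76.6 TPM with metformin, against 253, 278 and 266 TPM with vehicle (log2 change -1.80 ± 0.11 SE, limma adjusted p = 2.4e-07). The 1 that rose was Noxo1 (0.64), the organiser subunit of the related oxidase NOX1, a call lost under median-of-ratios scaling (limma adjusted p = 0.057) and, with p between 0.061 and 0.11, without any 1 library but replicate 1 of Vehicle PBS. Of 9 Toll-like receptor genes 4 fell, Tlr2 and Tlr8 among them, and 0 rose, with Tlr13, a sensor of bacterial ribosomal RNA, changing by -1.55; under median-of-ratios scaling 6 fell. Of 8 chemokine receptor genes Ccr2 (-1.65), Cx3cr1 and Cxcr4 (-1.02) were among the 4 that fell and 1 rose. Integrin chains fell in 8 of 17 cases, and the 1 that rose was Itgb3 (1.10). Over all genes 23.2% rose and 16.3% fell. The family counts include Cybb, Tlr8, Itgal and Cx3cr1, which were named above for their large falls. The families were thus not chosen independently of these values, and the shares are given for scale only.

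Of 9 Serpinb genes, for intracellular protease inhibitors, 7 rose and 0 fell (1 under median-of-ratios scaling), with a median log2 change of 1.24. Serpinb9b, named above for its large rise, is among the 7. Mitochondrial ribosomal proteins rose in 28 of 77 cases and fell in 2, with a median of 0.29, while cytosolic ribosomal proteins rose in 9 of 81 cases and fell in 8. The shares called were 39% and 21%, beside 39.5% of all genes. Under median-of-ratios scaling 21 of the mitochondrial genes rose and 2 fell, and 4 of the cytosolic genes rose and 12 fell. Zinc carriers of the Slc30 and Slc39 families rose in 11 of 18 cases and fell in 5.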
